A study of Homo sapiens with 12 samples.

Results

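Which mRNAs gained and which lost ribosomes in the polysomes of human cells deprived of amino acids was examined in 4 of 12 ribosome profiling libraries of HEK293 cells, an established line derived from human embryonic kidney. The groups were log phase cells, grown in DMEM with 10% FBS and P/S, and cells at 60% confluence kept for 1 h in EBSS, a salt solution without amino acids, to which MEM vitamins, 10% FBS and P/S were added. Serum was therefore present in both groups, and the base medium differed: DMEM contains amino acids and EBSS does not. Each group had 2 polysome libraries, A and B, assigned to it by their labels. Polysomes are mRNAs carrying several ribosomes, and the libraries hold the stretches of 17 to 34 nucleotides that those ribosomes protected from nuclease. The other 8 libraries cover 2 h of serum starvation and the monosome fraction, that is, single ribosomes, of all conditions, and they are used here only to show where the amino acid response in polysomes differs. Lysates of every group contained 100 µg/ml cycloheximide, a drug that holds elongating ribosomes in place. Footprints of the coding reading frames were summed per gene: 6375 genes had such a frame and 5323 of them, those with enough footprints, were tested.

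A pair of signalling pathways is known to report a lack of amino acids to the translation machinery. The kinase complex mTORC1, which sits on the lysosome with the Ragulator (LAMTOR) and Rag proteins, loses activity; its substrates, the 4E-BPs, and the RNA-binding protein LARP1 then hold back mRNAs that begin with a 5′ terminal oligopyrimidine (5′TOP) tract, the class that encodes nearly all ribosomal proteins and several translation factors. The kinase GCN2, activated by uncharged tRNA, phosphorylates eIF2, which slows initiation on most mRNAs while ATF4 mRNA is translated better through upstream reading frames; ATF4 then drives genes for amino acid synthesis, amino acid uptake and tRNA charging.

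The polysome libraries held from 1493881 (starved, A) to 5313462 (log phase, A) coding footprints, 56.9% to 69.2% of all footprints in reading frames for the 4 libraries compared. Libraries with the same letter deviated together (the difference B minus A correlated across genes at r = 0.73 to 0.83 between the 3 polysome conditions), so the letter was kept as a block. That difference also ran along the axis of the starvation response. The serum starvation pair is in neither group of the fold change, though it entered the fit, its letter block and the scaling. Across the 5323 genes, B minus A in that pair had a Spearman correlation of 0.72 with the amino acid response. For this reason the median change within letter A and within letter B is given beside the gene groups, and the part of the letter difference in the response was not tested beyond that. Of the HEK293 markers, NEFL had 777 to 2434, NEFM 1943 to 6282 and VIM 88 to 492 footprints per library. The keratin KRT8 had 1 to 4, and KRT18 had no coding frame under this name. The fibroblast gene COL1A1 had 2 to 20. Whether the letters stand for separate cultures is not stated, so p-values measure the spread between these libraries only. Levels below are normalised footprint counts (CPM, scaled to the coding footprints of each library after TMM), given for libraries A and B in that order, and a log2 change is starved over log phase. A level is a share of the library, so it shows change relative to other genes, and it does not tell fewer copies of an mRNA from fewer ribosomes on each copy.

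The first bases of the mRNAs set out the class that moved most. The windows below run from 8 bases before to 20 bases into the transcript, starting at the RefSeq start (GRCh38.p14), and capitals mark the pyrimidines that follow from the first transcribed base where that base is C and at least the next 4 are C or T. The first 8 fell after amino acid withdrawal; RPSA and EEF2 bear the tract and did not pass the test; EIF3D and CCT4 bear it and rose. RPS28 has no such tract at the listed start and fell, and RPL4 has none at the listed start and did not pass. Both of these windows hold a run of C and T shortly after the listed start, which the rule does not count.
RPL12 (chr9:127451387-127451414, minus strand): atttccggCCTCTCggctttcggctcgg
RPS27 (chr1:153990754-153990781, plus strand): ctttcgctCCTTTCCggcggtgacgacc
RPL28 (chr19:55385924-55385951, plus strand): tcgccttcCTCTTTCCgtctcaggtcgc
RPS12 (chr6:132814561-132814588, plus strand): gatgaggcCTCTTTCCCTgccgccgccg
RPS19 (chr19:41860247-41860274, plus strand): ccgtcgttCCCTTTCCCCTggctggcag
PFDN5 (chr12:53295534-53295561, plus strand): gagacttcCTCTTCgttaagtcggcctt
TPT1 (chr13:45341164-45341191, minus strand): gagtcggcCTTTTCCgcccgctcccccc
EEF1A1 (chr6:73521013-73521040, minus strand): tgaacgttCTTTTTCgcaacgggtttgc
RPSA (chr3:39406712-39406739, plus strand): ccgcctgtCTTTTCCgtgctacctgcag
EEF2 (chr19:3985444-3985471, minus strand): tcagcgttCTCTTCCgccgtcgtcgccg
EIF3D (chr22:36529147-36529174, minus strand): catgtttcCTCTTTTCCTggtttctcaa
CCT4 (chr2:61888637-61888664, minus strand): aaggccccCTTCTCCgcctccgcctcct
RPS28 (chr19:8321488-8321515, plus strand): agcacgtgactcctctccgccagaccgc
RPL4 (chr15:66504836-66504863, minus strand): ggagtggtaagcacttccttttcctgtg
By this rule (the letter C, then 4 letters each C or T, on the transcribed strand, at any listed start of a gene), 40 of 55 ribosomal protein genes with an entry had a tract, 13 of 15 of the other listed 5′TOP genes, and 319 of 4172 (7.65%) of all other genes tested; 4.07% of the 35116 windows in the table had one.

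Changes were called by an edgeR quasi-likelihood test with the letter as block, at a Benjamini-Hochberg adjusted p under 0.05. After 1 h of amino acid starvation, 1318 of 5323 genes (24.8%) changed in polysomes: 641 (12.0%) rose and 677 (12.7%) fell. Among them 467 rose and 432 fell at least 2-fold, and 25 rose and 62 fell at least 4-fold; 36 of these 62 encode cytosolic ribosomal proteins. In 837 of the 1318 the 2 starved libraries lay wholly above or below both log phase libraries. This held for 31.7% of all genes tested. The same direction in both letters was seen in 1317 of the 1318, against 3840 of all 5323. A test with the letter as block favours genes whose letters agree, so this last comparison follows largely from the selection. Without the letter block no gene passed (197 had an unadjusted p under 0.05). Leaving out log phase library A or B left 397 or 389 calls, and leaving out starved library A left 752; 1 block shared by polysome and monosome libraries in a fit of all 12 gave 480. Scaling to total coding footprints without TMM moved the median of all genes from -0.03 to 0.26 and the calls to 667 higher and 223 lower, so falls below are relative to a typical gene. Of the genes named below, 17 fell with TMM scaling and missed the threshold under total-count scaling: EEF1A1, EEF1D, PABPC1, EIF4E2, DENR, NDUFB1, OST4, KRTCAP2, LSM3, PFDN4, LAMTOR2, LAMTOR5, MTHFD2, AMD1, SRM, MANF and ATP6V1G1.

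Cytosolic ribosomal proteins, the structural proteins of both ribosomal subunits, lost the most ground. Of 68 tested, 63 fell and none rose, with a median log2 change of -2.06 beside -0.03 over all genes; 39 of 42 large-subunit genes (median -1.94) and 24 of 26 small-subunit genes (median -2.22) fell. Together they took 14.6% and 10.7% of coding footprints in log phase libraries A and B and 4.57% and 3.73% in starved libraries A and B, so the shares did not overlap and the starved mean was 0.328 of the log phase mean. The median change was -2.36 within letter A and -1.79 within letter B, while B over A was -0.89 in log phase and -1.33 in serum starvation. Of the 68, 46 fell without log phase library A and 49 without B. Reads of ribosomal protein genes can be shared with processed copies elsewhere in the genome, and how the authors' counting divided them is not given in the sources used here.

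**Figure D1:**
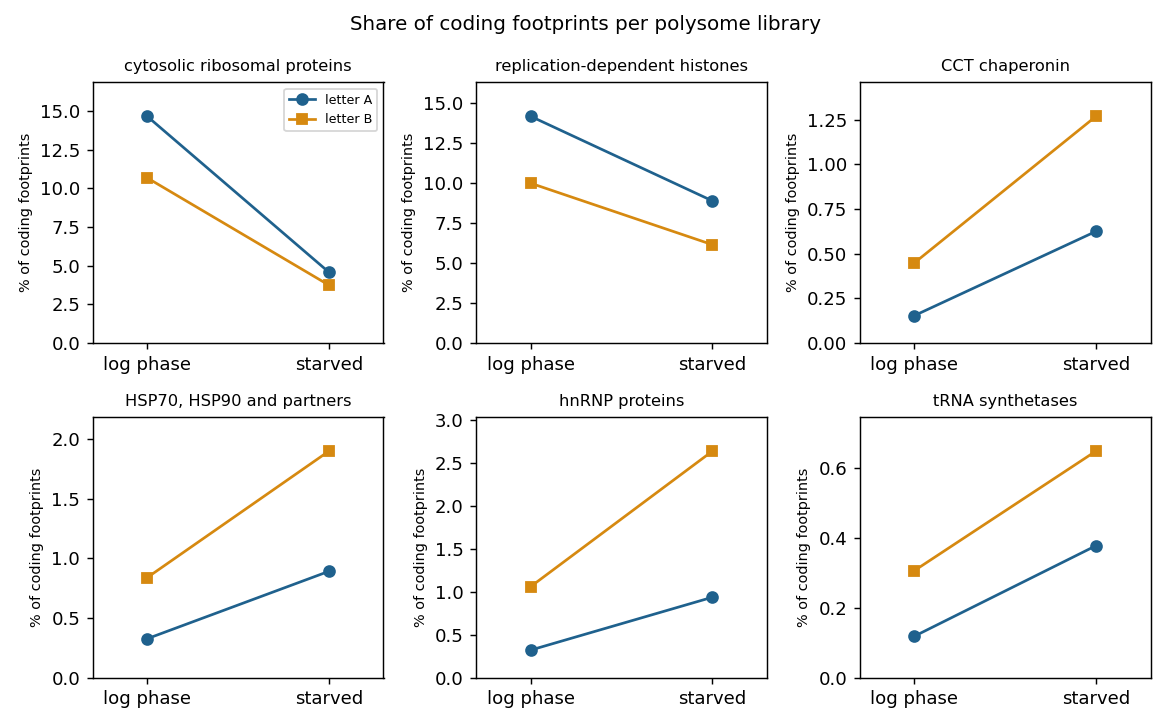
Share of all coding footprints (percent, axes from 0) taken by 6 gene groups in the 4 polysome libraries, with letter A as circles and letter B as squares, joined within a letter. Ribosomal proteins fell from 14.6% and 10.7% to 4.57% and 3.73%, histones fell less, and the other 4 groups were higher after starvation within each letter.

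RPL12, a protein at the base of the ribosomal stalk, fell most of all genes tested: it stood at 1768 and 522 in log phase and at 76.9 and 61.0 in starved cells (log2 change -3.76 ± 0.35 (SE), adjusted p = 1.4e-08), a 13.5-fold drop. The stalk protein RPLP2, among the most abundant of the group, went from 8443 and 4855 to 821 and 629.7 (-3.12 ± 0.41 (SE), adjusted p = 1.7e-06). Its partner RPLP1 went from 6939 and 2147 to 699.6 and 447 (-2.72 ± 0.39 (SE), adjusted p = 6.2e-06), and the stalk base protein RPLP0 from 1151 and 1129 to 122 and 224 (-2.71 ± 0.34 (SE), adjusted p = 1.6e-06). All 4 proteins of the stalk and its base thus lay far below log phase in both starved libraries.

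In the small subunit, RPS27 went from 186 and 100.1 to 11.3 and 10.8 (-3.55 ± 0.37 (SE), adjusted p = 6.1e-08). RPS28 went from 169.7 and 69.9 to 19.7 and 7.79 (-3.15 ± 0.35 (SE), adjusted p = 1.7e-07). RPS19, the gene most often mutated in Diamond-Blackfan anaemia, went from 7081 and 3235 to 759 and 584 (-2.79 ± 0.38 (SE), adjusted p = 4.0e-06). In each of the 3, both starved libraries lay below both log phase libraries. Between -2.69 and -3.47 lay RPL28 (-3.46), RPL27A (-2.91), RPS12 (-2.88), RPS18 (-2.73), RPS2 (-2.72) and RPL39L (-3.0); RPL39L is a close copy of RPL39, its counted frame has 15 nucleotides, and its reads cannot be assigned with certainty. RPS6, the subunit protein that is the classical phosphorylation target of S6 kinase, fell by less, from 3215 and 1941 to 866 and 709.7 (-1.66 ± 0.32 (SE), adjusted p = 2.9e-04). RPL3, at the peptidyl transferase centre, went from 1279 and 1129 to 400.4 and 320.3 (-1.75 ± 0.30 (SE), adjusted p = 5.9e-05).

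The 5 ribosomal protein genes that did not pass were RPL4, RPL5, RPL6, RPSA and RPS4X. RPL4 read 689.5 and 1689 in log phase and 906 and 1162 in starved cells (-0.06 ± 0.31 (SE), adjusted p = 0.92). RPS4X read 1838 and 3281 and 1257 and 2082 (-0.60 ± 0.32 (SE), adjusted p = 0.18), RPSA 138 and 178 and 96.5 and 153 (-0.35 ± 0.27 (SE), adjusted p = 0.38). RPL5 (-0.78 ± 0.30 (SE), adjusted p = 0.052) and RPL6 (-0.71 ± 0.31 (SE), adjusted p = 0.094) were lower without passing. Of the 40 members with a 5′ tract at a listed start 39 fell (median -2.26), and of the 15 without one there 12 fell (median -1.46). Among all other genes tested the tract went with little change: 48 of 319 fell and 32 rose (median -0.08), against 419 and 490 of 3853 without a tract (median -0.00).

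**Figure D2:**
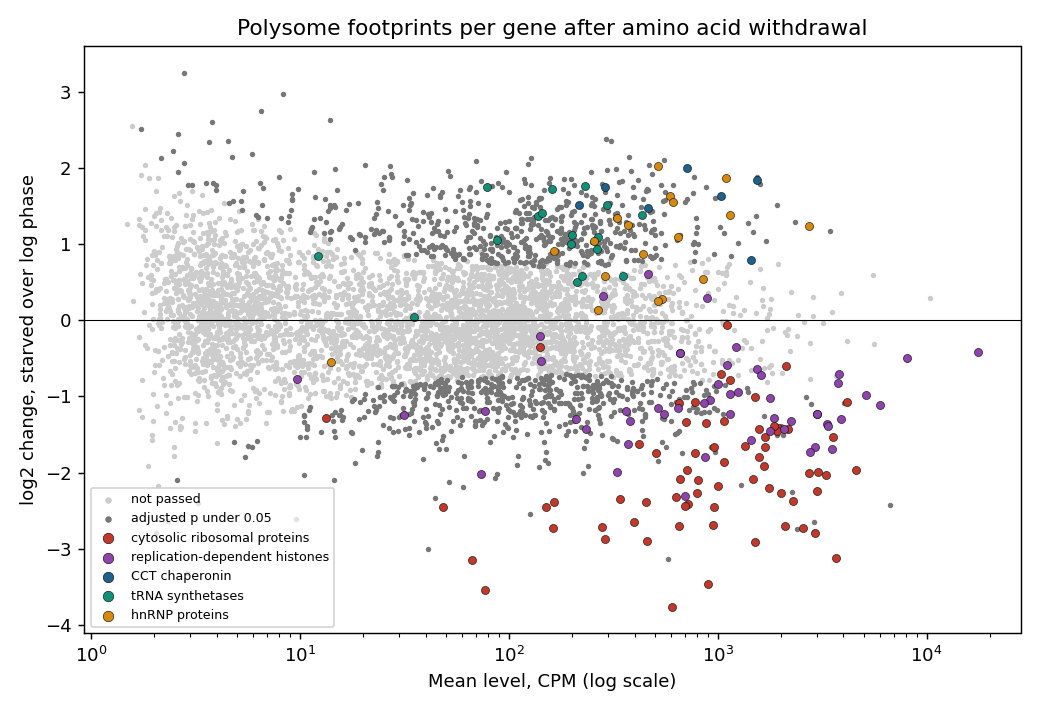
Each point is 1 of 5323 genes; the x axis is the mean level over both groups in CPM (log scale) and the y axis the log2 change, starved over log phase. Coloured groups are named in the key; 63 of 68 ribosomal proteins fell, and CCT, tRNA synthetase and hnRNP genes lie mostly above 0.

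Other mRNAs with a known 5′TOP tract moved less. Of 20 tested, 6 fell and 1 rose, with a median of -0.15 (-0.34 within letter A and -0.32 within letter B), which was 0.15 under total-count scaling, where 3 fell and 1 rose; without log phase library A or B, 2 fell and none rose. PFDN5, a prefoldin subunit that hands nascent actin and tubulin to the CCT chaperonin, went from 1175 and 469 to 254 and 167 (-1.85 ± 0.29 (SE), adjusted p = 2.5e-05). TPT1, the translationally controlled tumour protein, went from 392.4 and 313 to 130.5 and 103 (-1.59 ± 0.27 (SE), adjusted p = 5.9e-05). BTF3, a subunit of the nascent chain complex, went from 5192 and 4495 to 2198 and 1613 (-1.36 ± 0.34 (SE), adjusted p = 0.0033). All 3 lay lower in both starved libraries than in either log phase library. EEF1A1, which brings aminoacyl-tRNA to the ribosome, went from 1278 and 1473 to 518 and 710.4 (-1.18 ± 0.30 (SE), adjusted p = 0.0039), and EEF1D (-0.76, adjusted p = 0.036) and the poly(A)-binding protein PABPC1 (-0.79, adjusted p = 0.046) fell by less. EEF2, the translocase, read 500.2 and 989 in log phase and 353 and 1014 in starved cells (-0.22 ± 0.29 (SE), adjusted p = 0.65), and the groups overlapped; under total-count scaling its change was 0.06. The importin IPO5 rose by 0.78 (adjusted p = 0.033).

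Replication-dependent histones, the core and linker histones made in S phase from mRNAs that end in a stem-loop, were the second large group to fall. Of 52 tested, 36 fell and none rose (median -1.17; -1.35 within letter A and -0.89 within letter B), and their share went from 14.2% and 9.99% to 8.89% and 6.15% of coding footprints. B over A was -1.29 in log phase and -1.75 in serum starvation. The count was 5 without log phase library A, 8 without log phase library B and 23 without starved library A or under total-count scaling. H4C11 went from 1285 and 1035 to 247 and 220.3 (-2.30 ± 0.30 (SE), adjusted p = 1.7e-06). H2AC13 went from 1776 and 912 to 517 and 258 (-1.80 ± 0.32 (SE), adjusted p = 9.7e-05), and H4C12 from 886 and 198 to 156 and 76.6 (-1.99 ± 0.31 (SE), adjusted p = 1.8e-05). H4C9 read 219 and 25.3 in log phase and 40.5 and 9.83 in starved cells (-2.02 ± 0.33 (SE), adjusted p = 3.6e-05); here the groups overlapped, and library B lay far below A in both. Histone genes are near-identical copies, so reads of single members are uncertain. Of 6 variant histone and histone-processing genes with polyadenylated mRNAs, none fell, and SLBP, which binds the stem-loop of the histone mRNAs, rose by 0.95 (adjusted p = 0.011), a call lost without either log phase library or without starved library A.

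Several sets of small proteins had more falls than rises. Nuclear-encoded subunits of respiratory complexes III to V, which carry electrons to oxygen and make ATP, had 16 of 31 genes lower and 3 higher (median -0.87), and complex I had 14 of 32 lower and 4 higher (median -0.69). UQCRH, the hinge protein of complex III, went from 1422 and 669.8 to 397 and 214 (-1.74 ± 0.29 (SE), adjusted p = 5.6e-05). ATP5MC2, a copy of the c ring of ATP synthase, went from 2185 and 852 to 515 and 316 (-1.74 ± 0.32 (SE), adjusted p = 1.3e-04). The complex III subunit UQCRB (-1.46) and the complex I subunits NDUFA3 (-1.42), NDUFB3 (-1.27) and NDUFB1 (-1.17) fell too. A catalytic subunit went the other way: ATP5F1A, the alpha subunit of ATP synthase, rose from 196 and 534 to 631 and 1502 (1.60 ± 0.30 (SE), adjusted p = 1.7e-04). The changes within letters A and B were -0.90 and -0.71 for complexes III to V and -0.83 and -0.50 for complex I, and B over A in log phase was -1.09 and -1.18. In complexes III to V, 6 fell and 1 rose without log phase library A, 3 fell and 1 rose without log phase library B, and 8 fell and 3 rose under total-count scaling. The balance of complex I turned under some settings: 2 fell and 1 rose without log phase library A, none fell and 2 rose without log phase library B, 7 fell and 1 rose without starved library A, and 3 fell and 4 rose under total-count scaling, with the median at -0.40 there.

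Genes for entry into the secretory pathway had more falls than rises with TMM scaling. Of 24 genes for the signal recognition particle, translocon, signal peptidase and oligosaccharyltransferase, 13 fell and 1 rose (median -0.75; -0.82 within letter A and -0.57 within letter B). Without log phase library A 6 fell and 1 rose, without log phase library B 1 fell and 1 rose, without starved library A 6 fell and 2 rose, and under total-count scaling 1 fell and 3 rose (median -0.45). SSR4, of the translocon-associated complex, went from 502 and 262 to 115 and 79.3 (-1.92 ± 0.28 (SE), adjusted p = 9.9e-06), and OST4 and KRTCAP2, small subunits of the oligosaccharyltransferase, fell by 1.38 and 1.25. SRP68, of the signal recognition particle, rose from 7.74 and 14.9 to 34.6 and 40.7 (1.79 ± 0.36 (SE), adjusted p = 3.5e-04). In the Sm and LSm rings, which form the core of spliceosomal RNPs and decay complexes, 5 of 14 fell (-0.85 and -0.49 within letters A and B), and 1 or 2 did without log phase library A or B and 3 without starved library A or under total-count scaling; SNRPD2 went from 5252 and 2395 to 862 and 607 (-2.26 ± 0.36 (SE), adjusted p = 2.9e-05) and LSM7, LSM6 and LSM3 fell by 1.23, 1.27 and 1.08. Prefoldin had 5 of 8 lower (-1.07 and -0.77 within letters A and B; 2 without either log phase library, 3 without starved library A or under total-count scaling), with UXT at -1.44, PFDN1 at -1.26 and PFDN4 at -1.01. Of 15 mitochondrial import genes 7 fell (-0.63 and -0.50 within letters A and B; 1 without either log phase library, 2 without starved library A or under total-count scaling), among them the outer membrane proteins TOMM6 (-1.50) and TOMM22 (-1.39). Mitochondrial ribosomal proteins had 17 of 67 lower and 6 higher (median -0.35; -0.47 and -0.20 within letters A and B). Their count was 5 lower and 3 higher without log phase library A, 4 and 2 without log phase library B, 9 and 3 without starved library A, 26 and 11 without starved library B, and 8 and 6 under total-count scaling. MRPL52 went from 639 and 208 to 182 and 88.5 (-1.50 ± 0.29 (SE), adjusted p = 2.6e-04), whereas MRPL44 rose from 32.9 and 67.7 to 162 and 231 (2.05 ± 0.30 (SE), adjusted p = 1.2e-05).

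Of 37 listed genes for mTORC1, its amino acid sensors and partners, 14 were tested. The kinase gene MTOR had no coding frame under this name and was not among them. The 14 gave 3 falls and no rise (median -0.14; -0.26 and -0.13 within letters A and B). Under total-count scaling the median was 0.15 and 1 fell. With 1 library left out, 2 fell without log phase library A, 1 without log phase library B, 1 without starved library A, and 5 fell and 1 rose without starved library B. All 3 in the fit of all 6 libraries were small Ragulator subunits. LAMTOR4 went from 558 and 193 to 88.2 and 71.8 (-2.0 ± 0.31 (SE), adjusted p = 1.6e-05). LAMTOR2 went from 129.8 and 34.3 to 38.7 and 22.0 (-1.18 ± 0.32 (SE), adjusted p = 0.0065) and LAMTOR5 from 328 and 121 to 149 and 62.7 (-1.03 ± 0.31 (SE), adjusted p = 0.013), with overlapping groups. RRAGA, a Rag GTPase, was at 0.78 (adjusted p = 0.086) and did not pass. Of 23 autophagy and lysosome genes 4 rose and 2 fell (median -0.10, and -0.04 within each letter; 0.20 under total-count scaling, where 4 rose and 1 fell). SQSTM1, the p62 autophagy receptor, rose from 21.5 and 68.6 to 71.5 and 132 (1.31 ± 0.29 (SE), adjusted p = 9.2e-04), and PSAP, the precursor of the lysosomal saposins, from 112 and 222 to 339 and 522 (1.43 ± 0.29 (SE), adjusted p = 3.9e-04). LAMP1 rose by 0.76. Subunits of the vacuolar ATPase split: ATP6V1A, the catalytic subunit, rose by 1.70 from a low level, and ATP6V1F and ATP6V1G1 fell by 1.92 and 0.86. With either log phase library left out, 1 autophagy or lysosome gene rose and 1 fell, and without starved library B 4 rose and 5 fell.

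Among initiation factors, calls in eIF3 and around eIF2 were all upward. Of 12 eIF3 subunits 5 rose and none fell (median 0.47; 0.76 and 0.33 within letters A and B). EIF3B went from 253 and 806 to 998 and 1836 (1.61 ± 0.31 (SE), adjusted p = 2.8e-04), EIF3D, a subunit with cap-binding activity, from 39.2 and 87.5 to 115 and 252 (1.54 ± 0.28 (SE), adjusted p = 1.3e-04), and EIF3C, which has a near-identical copy in the genome, rose by 1.32. Of 11 factors around eIF2, 3 rose (median 0.23; 0.24 and 0.19 within letters A and B), all of them subunits of eIF2B, the exchange factor that phosphorylated eIF2 blocks: EIF2B3 went from 66.7 and 140.3 to 208 and 294 (1.36 ± 0.27 (SE), adjusted p = 4.0e-04), and EIF2B2 and EIF2B4 rose by 1.44 and 1.22. When log phase library A was left out, 1 eIF3 gene and no eIF2B gene passed, and 3 eIF3 genes passed without log phase library B or starved library A. Of 12 cap-binding factors and partners 2 rose and 3 fell (0.18 and -0.16 within letters A and B). There 1 rose and 1 fell without log phase library A, none rose and 1 fell without log phase library B, none rose and 4 fell without starved library B, and 2 rose and 1 fell without starved library A or under total-count scaling. EIF4EBP2, a 4E-BP, went from 83.4 and 59.5 to 28.6 and 19.3 (-1.58 ± 0.30 (SE), adjusted p = 1.9e-04), and EIF4E2, a second cap-binding protein, fell by 0.93. Of 10 elongation, termination and recycling factors 2 rose and 3 fell (median -0.27; -0.47 and -0.12 within letters A and B). None passed without log phase library A, 1 fell and none rose without log phase library B, 1 rose and 2 fell without starved library A, and under total-count scaling 2 rose, none fell and the median was 0.02. ABCE1, which splits ribosomes after termination, rose by 1.16, and DENR, a recycling and reinitiation factor, fell by 1.01, on a counted frame of 30 nucleotides.

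Of 23 listed stress response regulators, 9 were tested and gave 1 call (median 0.22, with 0.10 and 0.26 within letters A and B). Without log phase library B their median was 0.17. The others, among them ATF5, TRIB3 and CHAC1, had no coding frame under their names or lay below the filter. The response downstream of eIF2 as a whole was therefore not tested. ATF3 rose from 50.5 and 66.8 to 107 and 222 (1.40 ± 0.28 (SE), adjusted p = 3.1e-04). ATF4 itself read 146 and 45.1 in log phase and 138 and 67.8 in starved cells (0.22 ± 0.27 (SE), adjusted p = 0.62), with overlapping groups: within letter A the change was -0.09 and within letter B 0.58. Against serum starvation, where ATF4 stood at 73.9 and 33.4, its level was higher (0.96 ± 0.28 (SE), adjusted p = 0.017). DDIT3, ASNS and PPP1R15A had no coding frame under these names and were not analysed here. Amino acid enzymes and transporters, many of them ATF4 targets, had 9 of 21 higher and 1 lower (median 0.58; 0.56 within letter A and 0.57 within letter B); 4 rose without log phase library A or B. GOT2, the mitochondrial aspartate aminotransferase, went from 20.1 and 71.3 to 104 and 161 (1.80 ± 0.32 (SE), adjusted p = 1.0e-04), and its cytosolic partner GOT1 from 15.7 and 18.5 to 41.7 and 58.6 (1.51 ± 0.32 (SE), adjusted p = 7.0e-04). SHMT2, the mitochondrial serine hydroxymethyltransferase, went from 39.9 and 99.2 to 119.8 and 299.9 (1.59 ± 0.27 (SE), adjusted p = 6.6e-05), and the cytosolic SHMT1 rose by 1.52. SLC38A2, the adaptive transporter of neutral amino acids, went from 43.8 and 82.5 to 90.0 and 214 (1.22 ± 0.27 (SE), adjusted p = 0.0012). PSAT1, in serine synthesis, rose by 1.18, and SLC3A2, the shared chain of several exchangers, by 0.85. The folate enzyme MTHFD2, whose mRNA start bears a tract, fell from 381 and 389 to 222 and 243 (-0.73 ± 0.27 (SE), adjusted p = 0.043).

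**Figure D3:**
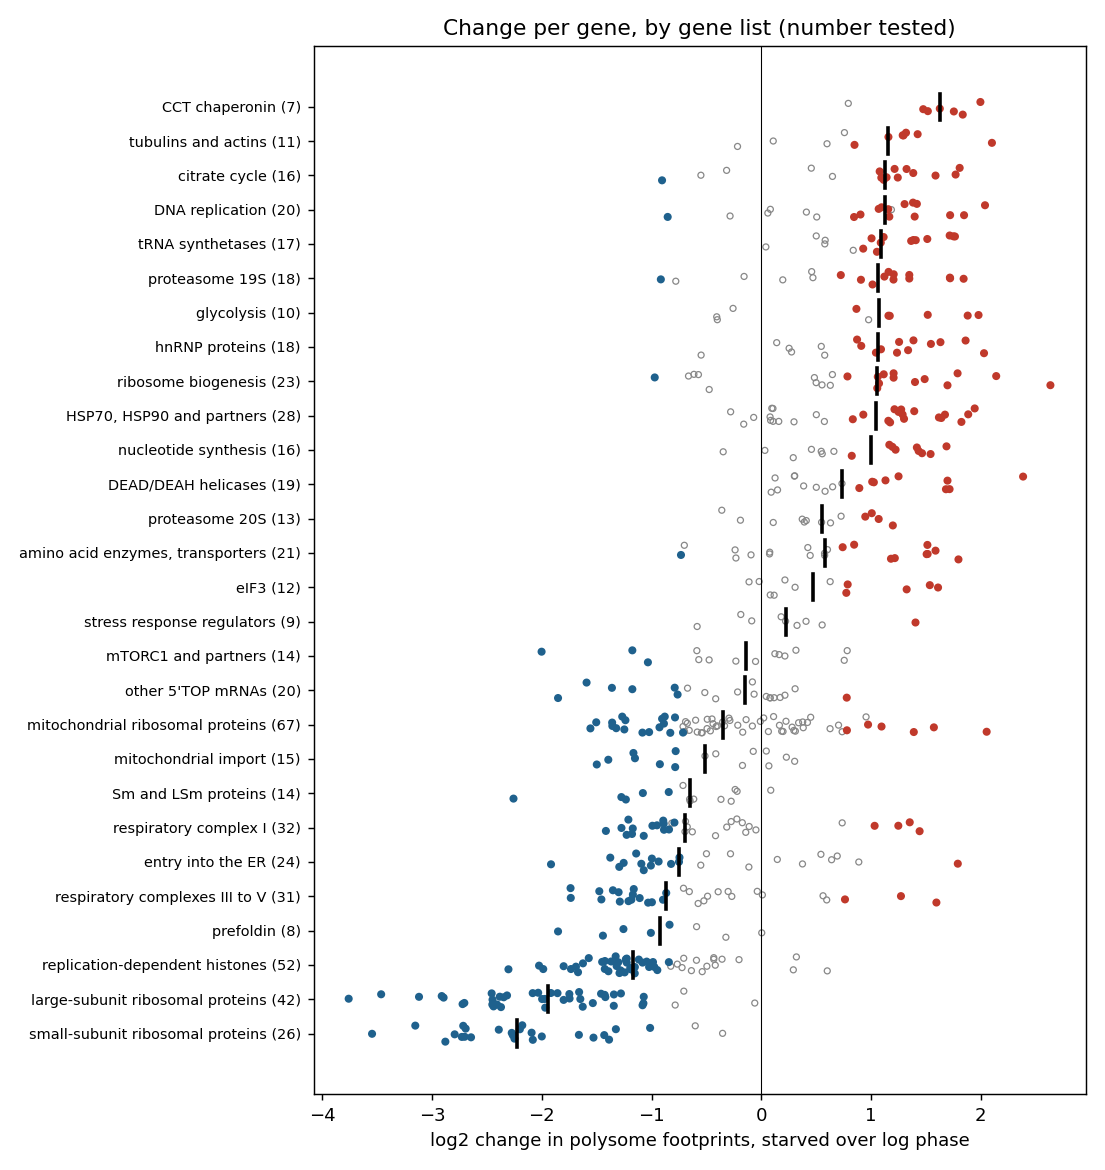
Log2 change of polysome footprints, starved over log phase (x axis), for the tested genes of 28 lists (y axis, number tested in brackets). Filled points passed the test (red higher, blue lower), open points did not, and black bars are medians, from -2.22 for small-subunit ribosomal proteins to 1.63 for the CCT chaperonin.

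Aminoacyl-tRNA synthetases, which charge tRNA with amino acids, rose as a group. Of 17 cytosolic enzymes and scaffold proteins 12 rose and none fell (median 1.09; 1.24 and 0.96 within letters A and B), 5 of 8 in the multisynthetase complex and 7 of 9 outside it; 4 and 6 rose without log phase library A and B. B over A was 0.70 in log phase and 1.17 in serum starvation. The arginine enzyme RARS1 went from 19.1 and 56.4 to 74.5 and 165 (1.75 ± 0.29 (SE), adjusted p = 5.2e-05), and FARSA, the alpha subunit of the phenylalanine enzyme, from 42.5 and 218 to 236 and 430.4 (1.76 ± 0.32 (SE), adjusted p = 1.1e-04). TARS1, IARS1 and NARS1 rose by 1.51, 1.39 and 1.41. All 5 lay higher in both starved libraries than in either log phase library.

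Chaperones of the CCT list and of the HSP70 and HSP90 list rose, whereas prefoldin, given above, had 5 of 8 genes lower. The CCT chaperonin had the highest median of the 45 lists. This ring, which folds actin and tubulin, had 6 of 7 subunits higher (median 1.63; 1.65 and 1.46 within letters A and B) and took 0.152% and 0.447% of coding footprints in log phase and 0.625% and 1.27% after starvation. CCT8 went from 199 and 355 to 738 and 1546 (2.00 ± 0.30 (SE), adjusted p = 1.4e-05). CCT7 went from 359 and 1144 to 1708 and 2963 (1.84 ± 0.33 (SE), adjusted p = 1.1e-04), CCT2 rose by 1.75 and CCT4 by 1.63. Of 11 tubulin and actin genes, which encode its clients, 7 rose (median 1.16; 1.23 and 0.74 within letters A and B), but 3 did without log phase library A and 1 without log phase library B; TUBB4B went from 87.3 and 319.8 to 352 and 1463 (2.10 ± 0.29 (SE), adjusted p = 3.9e-06). Of 28 HSP70, HSP90, J proteins and co-chaperones 16 rose and none fell (median 1.04; 0.94 and 0.74 within letters A and B). The J protein DNAJA1 went from 64.1 and 150.2 to 283 and 498 (1.95 ± 0.28 (SE), adjusted p = 8.3e-06), HSP90AB1 from 114 and 182 to 355 and 742 (1.82 ± 0.28 (SE), adjusted p = 1.9e-05), and the co-chaperone STIP1 and mitochondrial HSPA9 rose by 1.64 and 1.62. B over A in log phase was 0.90 for CCT and 0.95 for the HSP list. When log phase library A or B was left out, 4 CCT genes and 7 or 6 HSP genes rose.

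The ER chaperones did not move as a set: 4 of 17 rose and 3 fell (median -0.12; -0.28 and 0.19 within letters A and B). Under total-count scaling 4 rose and none fell (median 0.19), without either log phase library 1 rose and none fell, without starved library A 5 rose and 1 fell, and without starved library B 3 rose and 4 fell. PDIA3, a disulfide isomerase, went from 17.6 and 28.4 to 55.4 and 86.4 (1.61 ± 0.30 (SE), adjusted p = 1.8e-04), PDIA4 rose by 2.35 from a low level, and MANF fell by 1.01. In the regulatory particle of the proteasome, which recognises and unfolds ubiquitylated proteins, 12 of 18 genes rose and 1 fell (median 1.07; 1.49 within letter A and 0.53 within letter B), and in the 20S core 4 of 13 did (median 0.55; 0.93 and 0.15 within the letters). The difference between both particles was not tested. PSMD2 went from 80.3 and 339 to 398 and 847 (1.84 ± 0.30 (SE), adjusted p = 3.7e-05). PSMD12 and the ATPases PSMC2 and PSMC1 rose by 1.72, 1.72 and 1.35, and the core subunits PSMA3 and PSMA4 by 1.20 and 1.07. Without log phase library A 3 regulatory and 1 core gene rose, without log phase library B 7 and 0, without starved library A 4 and 1, and without starved library B 14 and 9.

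Proteins that bind and remodel RNA made up several of the highest single values. NOLC1, a nucleolar phosphoprotein, had the largest rise among named genes of at least 50 footprints (log2 change 2.63 ± 0.49 (SE)), on a counted frame of 126 nucleotides with 1.21 and 6.77 in log phase and 8.34 and 39.6 in starved cells. DDX1, a DEAD box helicase, went from 54.6 and 129.9 to 272 and 717 (2.39 ± 0.29 (SE), adjusted p = 7.5e-07). SF3B2, of the U2 snRNP, went from 45.9 and 175 to 281 and 733 (2.35 ± 0.29 (SE), adjusted p = 1.1e-06), and GNL3, nucleostemin, from 82.7 and 176 to 305 and 947 (2.14 ± 0.29 (SE), adjusted p = 3.3e-06). By list, 12 of 18 hnRNP genes rose (median 1.07; 1.01 and 1.00 within the letters), 9 of 19 DEAD and DEAH helicases (0.85 and 0.70), 7 of 13 SR proteins (1.03 and 0.60), and 13 of 23 ribosome biogenesis factors (1.01 and 0.94), of which 1 fell. HNRNPM went from 102 and 305 to 422 and 1233 (2.03 ± 0.28 (SE), adjusted p = 4.8e-06), and HNRNPK and HNRNPH1 rose by 1.86 and 1.63. The helicase DDX21 and nucleolin NCL, both of the nucleolus, rose by 1.70 and 1.79, and SRSF5 and SRSF6 by 1.56 and 1.17. B over A in log phase was 1.28 for hnRNP genes and 0.96 for biogenesis factors, and hnRNP shares overlapped between groups (1.06% in log phase B, 0.938% in starved A). Without log phase library A or B, 6 or 4 hnRNP genes, 6 and 6 biogenesis factors, 2 or 4 helicases and 1 and 1 SR gene rose, and without starved library A 4 SR genes did. Factors of ribosome assembly rose, then, in the same libraries in which ribosomal proteins fell.

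Genes of DNA replication and mitosis rose while replication-dependent histones fell. In replication 13 of 20 rose and 1 fell (median 1.13; 0.96 and 1.07 within letters A and B), and in mitosis 11 of 15 rose and 1 fell (median 1.00; 1.09 and 0.80). MCM4, of the replicative helicase, went from 87.5 and 263 to 325 and 1199 (2.04 ± 0.28 (SE), adjusted p = 4.8e-06). MCM7 rose by 1.72, the single-strand binding protein RPA1 by 1.85, and the histone acetyltransferase HAT1, which acts on newly made histone H4, went from 84.4 and 146 to 289.6 and 668 (1.97 ± 0.29 (SE), adjusted p = 1.3e-05). The mitotic cyclin CCNB1 went from 47.6 and 118 to 159.7 and 466 (1.86 ± 0.28 (SE), adjusted p = 1.5e-05), and its kinase CDK1 rose by 1.59. Without log phase library A or B, 6 or 4 replication genes and 4 or 5 mitosis genes rose, 7 mitosis genes did without starved library A, and B over A in log phase was 1.27 and 1.14. Of 23 importins, exportins and nucleoporins 9 rose (0.69 and 0.60 within letters A and B), KPNA2 by 1.65, and 3 or 2 did without those libraries.

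Enzymes of central metabolism rose too. Of 10 glycolytic genes 6 rose and none fell (median 1.07; 1.22 and 0.98 within letters A and B). PGK1 went from 86.1 and 176 to 330.1 and 718 (1.98 ± 0.30 (SE), adjusted p = 1.3e-05), PKM from 176 and 520.1 to 751 and 1625 (1.88 ± 0.30 (SE), adjusted p = 2.9e-05) and ENO1 from 771 and 1189 to 2054 and 3697 (1.52 ± 0.33 (SE), adjusted p = 8.6e-04). Of 16 citrate cycle and pyruvate dehydrogenase genes 11 rose and 1 fell (median 1.13; 1.37 and 0.75 within the letters), with DLD at 1.81, MDH1 at 1.77 and SDHA at 1.59. Of 16 nucleotide synthesis genes 9 rose (0.82 and 1.11 within the letters); PPAT and ATIC, at the first and last steps of purine synthesis, rose by 1.69 and 1.54. Without log phase library A or B, 2 or 3 glycolytic, 4 or 6 citrate cycle and 5 or 4 nucleotide genes rose, and without starved library A 5 citrate cycle genes did. In cholesterol synthesis 3 of 16 rose and 2 fell (0.57 and 0.25 within the letters; 1 rose and none fell without log phase library A, 2 and none without log phase library B, 6 and 1 without starved library B, 4 and none under total-count scaling), with HMGCS1 higher by 1.51. Polyamine synthesis fell in 3 of 6 genes (-0.84 and -0.44 within the letters): the spermine synthase SMS went from 511 and 268 to 168 and 134 (-1.30 ± 0.28 (SE), adjusted p = 7.5e-04), AMD1 fell by 1.01 and SRM by 0.83, while ODC1, its first enzyme, was at -0.45 (adjusted p = 0.25) and did not pass. None of these 3 passed without log phase library A, and 1 did without log phase library B, without starved library A or under total-count scaling. In the redox list 5 of 16 fell and 1 rose (0.04 and -0.10 within the letters); 1 fell without log phase library A or starved library A, 2 without log phase library B and 3 under total-count scaling. GPX4, the lipid peroxidase that is a selenoprotein, went from 125 and 77.6 to 31.0 and 41.4 (-1.39 ± 0.31 (SE), adjusted p = 0.0010).

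Among growth and immediate early factors, 3 of 9 rose (0.27 and 0.66 within letters A and B), and 1 did without either log phase library. JUN went from 27.6 and 59.1 to 91.2 and 331 (2.13 ± 0.29 (SE), adjusted p = 3.2e-06), and MYC from 564 and 1141 to 1439 and 2987 (1.37 ± 0.32 (SE), adjusted p = 0.0017). For JUN and MYC both starved libraries lay above both log phase libraries. MYC was also higher in serum-starved cells without passing (1359 and 2044; 1.06, adjusted p = 0.87), and its change against serum starvation was 0.31 (adjusted p = 0.56). Outside the lists, the 15 largest rises included the Golgi protein ACBD3 (2.09), the G protein regulator RGS2 (2.04) and the F-box protein FBXO21 (1.99), the last on a counted frame of 168 nucleotides.

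Reading frames were longer at the median in genes that rose than in genes that fell. The most occupied coding frame had a median of 1131 nucleotides in genes that rose, 411 in genes that fell and 672 in genes that did not pass. Of 872 genes with frames of 1200 to 2400 nucleotides 263 rose and 12 fell (median log2 change 0.47), and of 1299 with frames of 300 to 600 nucleotides 65 rose and 342 fell (median -0.38). Frames of 2400 nucleotides or more, 342 genes, gave 23 rises and no fall. Their share of rises was below the 12.0% of all genes, and their median of 0.29 below that of the class before. Of 1137 genes with frames below 300 nucleotides 62 rose and 168 fell (median -0.15), a smaller drop than at 300 to 600. The change thus did not run evenly with length. Across the 5323 genes, which share libraries and depth, length and log2 change had a Spearman correlation of 0.32, and of 0.31 over the 5203 genes left without ribosomal proteins and histones. The longest class was at 0.36 within letter A and 0.15 within letter B, and the class of 300 to 600 nucleotides at -0.52 and -0.27. Frames are those the caller reported and can be shorter than the annotated protein, as for RPS18 (18 nucleotides).

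**Figure D4:**
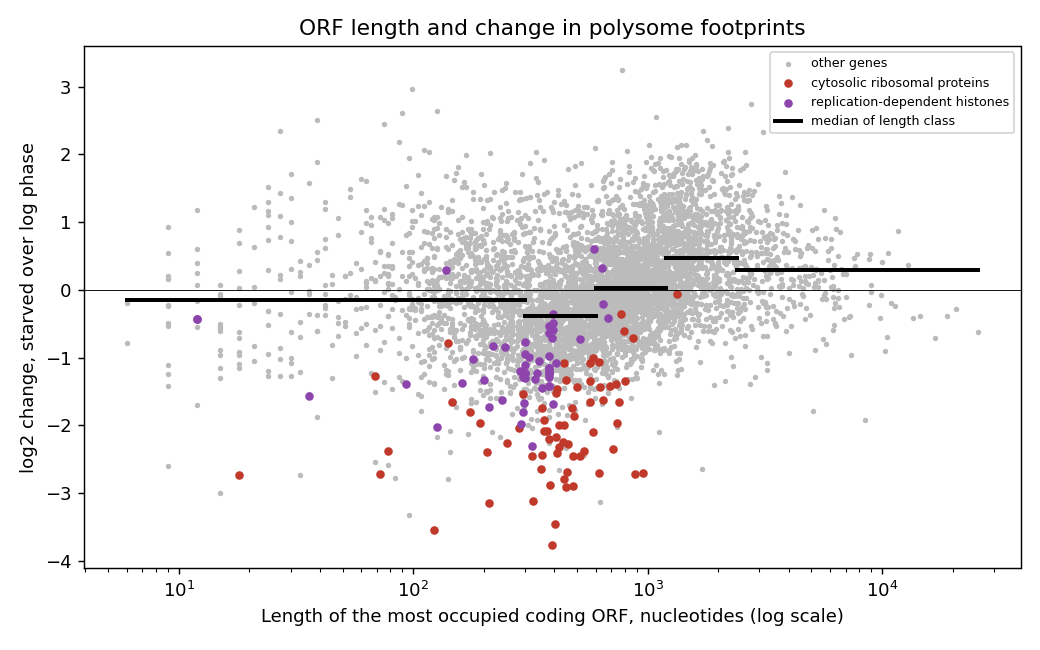
Length of the most occupied coding frame of each gene (nucleotides, log scale) against its log2 change, starved over log phase, with medians of 5 length classes as black bars. The medians run from -0.38 at 300 to 600 nucleotides to 0.47 at 1200 to 2400, and ribosomal proteins lie below the medians of their classes, with RPL4 near 0.

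Serum starvation for 2 h gave a far smaller response. Against log phase only PNRC1, a nuclear receptor coregulator, passed (1 of 5323 genes, 0.0188%; 175 had an unadjusted p under 0.05): it stood at 14.0 and 11.3 in log phase and 40.7 and 42.9 in serum starvation. The direct test of amino acid against serum starvation passed in 757 genes (14.2%), 353 (6.63%) higher and 404 (7.59%) lower; it shares the starved libraries with the comparison above. This count rests on serum library A, without which 85 genes passed, and it was 283 under total-count scaling, 48 in the fit of 12 libraries with 1 block and 0 without the block (79 had an unadjusted p under 0.05). Ribosomal proteins were lower than in serum starvation in 57 of 68 genes (median -1.58). RPL12 stood at 1115 and 347 in serum starvation (-3.13 ± 0.34 (SE), adjusted p = 7.7e-07), above both amino acid starved libraries. Histones were lower in 29 of 52, CCT higher in 6 of 7, tRNA synthetases in 11 of 17 and HSP genes in 14 of 28. HNRNPM (1.44), GNL3 (1.65) and SLC38A2 (0.99) were higher than in serum starvation.

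The response in polysomes differed from that in monosomes for 493 of 4765 genes (10.3%) in a direct test of the difference, 159 (3.34%) higher and 334 (7.01%) lower in polysomes; 1033 had an unadjusted p under 0.05. In monosomes themselves 321 genes (6.74%) passed, 162 (3.40%) higher and 159 (3.34%) lower. Monosome libraries of log phase and amino acid starved cells were shallower, with 172836 to 346200 coding footprints. No gene passed without the block, 55 did with 1 block for both fractions, and 143 to 621 did with 1 library left out, the lowest without starved monosome library B. Histones parted most: in monosomes 41 of 52 rose (median 1.78) while 36 fell in polysomes, and the difference passed in 47 (median -2.94). H2AC13 changed by 2.03 in monosomes, a difference of -3.85 ± 0.48 (SE; adjusted p = 3.0e-11). Ribosomal proteins had a smaller drop in monosomes (12 of 68 fell, median -0.63), and the difference passed in 40; RPL12 changed by -1.84 there (difference -1.94, adjusted p = 0.0023), whereas RPS12 changed by -3.16 in monosomes (difference 0.27, adjusted p = 0.84). Complex I subunits, of which 14 fell in polysomes, had 8 of 32 higher in monosomes, with the difference lower in 15. On the rising side, the difference passed in 4 of 7 CCT genes, 6 of 17 tRNA synthetases and 5 of 18 hnRNP genes, such as HNRNPM (-0.31 in monosomes, difference 2.33). SQSTM1 changed by -2.02 in monosomes, a difference of 3.30 ± 0.59 (SE; adjusted p = 5.1e-06). Under total-count scaling 187 differences were higher and 151 lower.

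**Figure D5:**
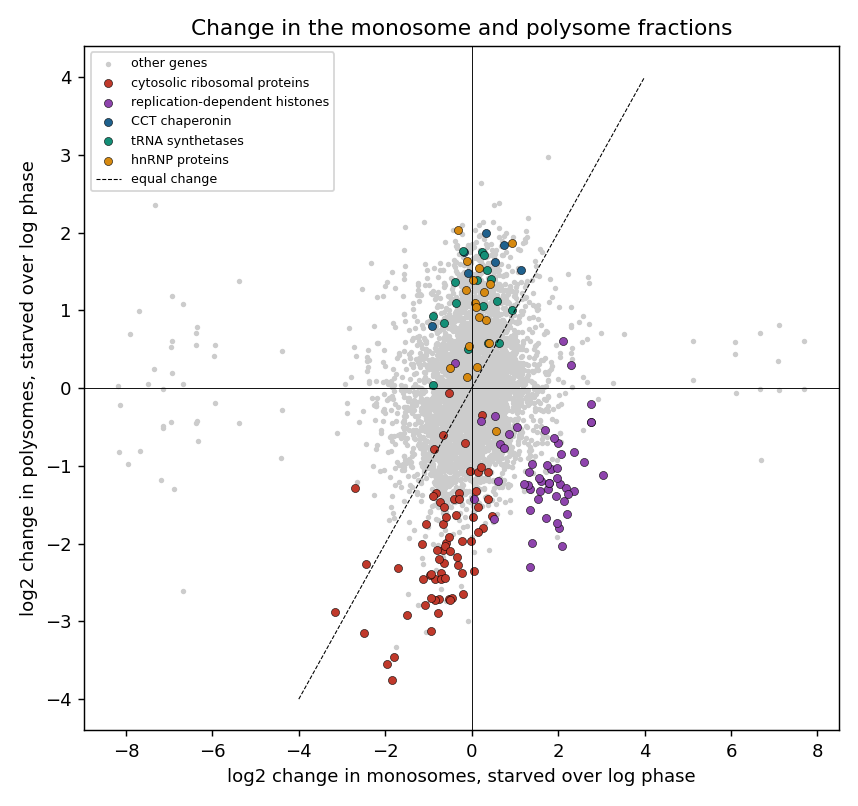
Log2 change, starved over log phase, in monosomes (x axis) against that in polysomes (y axis) per gene, with the line of equal change dashed; points beyond 4 on either side of the x axis are genes with no footprints in a monosome group. Histones lie right of 0 and below it (medians 1.78 and -1.17), and CCT, tRNA synthetase and hnRNP genes lie above the line.

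Coding frames took 69.2% and 56.9% of all footprints in frames in log phase and 60.3% and 58.5% in starved cells, so the groups overlapped. Starved library A depended on large frames, those that each took over 5% of a library. Without them its coding share was 66.05%, and its share in frames of non-coding RNA was 11.9% in place of 19.6%. The coding shares of the other libraries compared stayed the same. Upstream frames, which lie in the leader before the coding frame, took 2.55% and 4.83% in log phase and 2.34% and 3.37% in starved cells, and upstream frames that overlap the coding start 3.36% and 5.30% against 2.41% and 3.31%. Both were lower after starvation within each letter when all frames were counted. Without the large frames, upstream frames in letter A took 2.55% in log phase and 2.57% in starved cells, so they were not lower there. Internal frames took 7.86% and 10.6% in log phase and 12.2% and 13% in starved cells, without overlap. An exact permutation test of 2 against 2 libraries cannot go below p = 0.33 (two-sided), so none was made of these shares.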

How the data were processed

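The deposited table of the whole series lists reading frames called by PRICE with 1 column of estimated counts (expected counts, not whole numbers) per library, and a p-value of the caller, both made by the authors. Bowtie 1.0 and hg38 are named in the submitters' processing notes without their roles; parameters of mapping and calling are not given in the sources used here. Of 149028 frames, 124829 remained after repeated entries were removed; 7031 of the types CDS, Trunc and Variant were summed per gene, each codon counted once, and rounded. Genes were named by position through RefSeq (GRCh38.p14): 6058 of 6375 had a name.

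Counts were tested with edgeR 4.0.16 in R 4.3.3 (quasi-likelihood fit, TMM factors on total coding footprints, filterByExpr with a minimum count of 10 and total of 15) over the 6 polysome libraries with the letter as a block. Letters pair the libraries, since B minus A correlated at 0.73 to 0.83 between polysome conditions and at 0.16 to 0.42 between fractions; which replicate number of the labels each letter stands for is not given. The difference between fractions used 12 libraries with a block within each fraction. DESeq2 1.42.0 was an alternative, and scripts were tested on simulated data. SE is the size of the log2 change divided by the square root of F, and changes within a letter used a pseudocount of 1. Named genes are the 15 largest rises and falls with a mean of at least 50 footprints, up to 4 per list by p, a fixed set of translation and stress genes, and single members chosen after their values were seen, namely RPL4, RPL5, RPL6, RPSA, RPS4X, RRAGA and members named beside a group. The comparison and the 45 gene lists were chosen with earlier results of these data known. A few genes that this rule names are not reported here.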

Additional observations from a re-analysis of the deposited data

Results flagged for a closer look

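A single kind of result is listed here: genes named above whose log2 change in polysomes differed from their change in monosomes in the direct test (a value is the polysome change minus the monosome change; edgeR adjusted p under 0.05). Over all genes 493 differed. For ribosomal proteins the differences were RPL12 (-1.94), RPS27 (-1.60), RPL28 (-1.68), RPLP2 (-2.19), RPL39L (-2.93), RPL27A (-1.44), RPS19 (-1.73), RPS18 (-2.23), RPLP1 (-1.89), RPS2 (-2.20) and RPLP0 (-1.96). For replication-dependent histones they were H4C11 (-3.68), H4C12 (-3.39), H2AC13 (-3.85) and H4C9 (-4.14). Other genes that lay lower in polysomes were PFDN5 (-1.59), BTF3 (-1.91), EIF4E2 (-1.59), ATP5MC2 (-2.06), UQCRB (-1.87), NDUFB3 (-2.49), NDUFB1 (-1.19), SSR4 (-1.95), UXT (-1.94), PFDN1 (-1.94), LAMTOR5 (-1.27), SMS (-1.52), TOMM6 (-1.89), MANF (-1.34) and MRPL52 (-1.31).

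Among genes that lay higher in polysomes, the translation and amino acid genes were EIF3D (1.57), EIF3B (1.68), SHMT2 (1.75), GOT2 (1.89), SHMT1 (2.53), IARS1 (1.23) and FARSA (1.95). Folding, degradation and lysosome genes were PSAP (1.42), SQSTM1 (3.30), CCT8 (1.64), CCT2 (1.92), DNAJA1 (1.28), STIP1 (1.45), PSMD2 (2.16), PSMD12 (1.43), PSMC2 (1.46), TUBB4B (1.92), PDIA3 (3.93) and LAMP1 (1.42). PDIA4 had 4 footprints in each log phase monosome library and 0 in both starved ones, so its fitted difference (9.64 ± 2.81 (SE)) has no measured size. PDIA3 rests on 15 and 11 against 0 and 3 monosome footprints, SQSTM1 on 30 and 30 against 3 and 6, and SHMT1 on 5 and 21 against 6 and 1. RNA-binding and transport genes were HNRNPM (2.33), HNRNPH1 (1.73), SF3B2 (1.81), DDX1 (1.73), GNL3 (1.85), KPNA2 (1.68), SRSF5 (1.92) and DDX21 (1.58). Genes of metabolism, replication and growth control were ATP5F1A (1.34), MCM4 (1.93), CCNB1 (1.39), PGK1 (2.18), PKM (1.77), JUN (1.61), HAT1 (1.74), PPAT (1.86), DLD (1.72), SDHA (1.75), RPA1 (1.49) and MCM7 (2.00). Monosome libraries had 172836 to 346200 coding footprints, so a difference was harder to detect in genes with few monosome footprints, and no difference passed without the letter block. Groups of 2 libraries are too small for a test of single outlying libraries.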

How the results depend on the processing

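The call count against log phase (1318) stayed within 1.5 times under 4 libraries in the fit, a block within each fraction of 12 libraries, RLE scaling, no filter, at least 50 counts in 2 libraries, DESeq2, the caller's p under 1e-04, overlapping frames counted each time, thinning and total-count scaling (890 to 1415). It was 0 with no replicate block, 480 with 1 replicate block for both fractions, 235 of 821 genes with frames of the type CDS only, and 389 to 1737 with 1 library left out. All 1318 calls kept their direction with no replicate block, as did all 1294 of them tested in the 12-library fits. Those fits hold the same 4 libraries with both letters in each group, so the direction had little room to change. An alternative chosen after seeing the data removed ribosomal protein and replication-dependent histone genes from the counts. It then scaled to the remaining coding footprints without TMM. This gave 876 calls among 5231 genes, all among the 1318, of which 1219 were still tested. The comparison with serum starvation (757) gave 0 with no replicate block, 469 with only the 4 libraries compared, 48 with 1 block for 12 libraries, 283 with total-count scaling, 147 with the type CDS only, 274 without ribosomal protein and histone genes, and 85 to 1363 with 1 library left out. The difference between fractions (493) gave 0 with no replicate block, 55 with 1 block for both fractions, and 143 to 621 with 1 library left out. The cause of these shifts was not tested, except that type CDS only leaves fewer genes.

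Of 139 calls among the named genes followed under each setting, all were lost with no replicate block, 49 and 49 without log phase library A and B, 18 and 5 without starved library A and B, 29 with 1 block for 12 libraries, 17 with total-count scaling, 8 without ribosomal protein and histone genes, and 1 to 4 under each of DESeq2, no filter, 50 counts, the stricter caller p, thinning and type CDS only; none changed sign. Genes that had not passed and changed sign were RPL4 (0.26 with total-count scaling, 0.027 with at least 50 counts, 0.0054 after thinning, -0.50 to 0.34 with 1 library left out), EEF2 (0.065 with total-count scaling, -0.56 to 0.070 with 1 library left out) and ATF4 (-0.019 to 0.55 with 1 library left out). A call whose gene was not tested under a setting is not counted as lost there. Of the 139 calls, 28 were kept with type CDS only and 109 with the stricter caller p. Without ribosomal protein and histone genes 113 were kept, and many of the others were not tested under these settings. Depth limits genes near the filter: 1052 of 6375 genes were below it.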

Other observations

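Some further families had few calls, beside a background of 12.0% higher and 12.7% lower genes. Few calls do not place a family outside the response. Of 115 C2H2 zinc finger genes tested, 5 rose and 2 fell (median log2 change 0.09). The 175 zinc finger genes with a coding frame took a mean of only 0.151% of coding footprints in log phase. Of 30 ubiquitin enzymes 4 rose and none fell (median 0.28, with 23 above 0). Those that rose included the cullin CUL2 and the activating enzyme UBA1. Of 5 cohesin, condensin and SMC genes tested 1, the condensin subunit NCAPG, rose, and all 5 were above 0 (median 0.49).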
